A study of Mus musculus with 22 samples.

Results

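The mature skeletal muscle genes followed here are 36 genes of the contractile fibre: myosin heavy and light chains, thin filament proteins, troponins and tropomyosin, Z disc proteins, calcium handling proteins and enzymes of fibre metabolism. They were taken by name, with earlier results of these data known. All 36 were found among the 48440 gene rows counted in 22 mouse tumour libraries. The tumours carried the SS18-SSX fusion oncogene of synovial sarcoma, lacked Snf5 (Smarcb1, a core subunit of the SWI/SNF chromatin remodelling complex), or combined both lesions. RNA came from whole fresh-frozen tumour tissue, and polyadenylated RNA was sequenced.

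The 8 combined tumours were labelled SS18-SSX+/- and Snf5-/-, with 4 labelled Myf5cre (N1, N2, N3 and N4) and 4 labelled TATcre (N49, 78774, 78777 and 78780). The 8 Snf5-null tumours were labelled SNF5-/-, and their titles gave Myf5 for 3 (N30, N31 and N33) and TATCre for 5 (N1, N49, N43L, N43R and N51). The 6 SS18-SSX tumours were labelled SS18-SSX+/-, with Myf5 in the titles of 3 (N381, N428 and N460) and no Cre stated for 3 (A, B and N2). Titles that give Myf5 are read here as the Myf5Cre driver. Within a group, values below follow this order of title tags. Myf5Cre expresses Cre recombinase from Myf5, a gene of myogenic progenitors, so Cre acts in the muscle lineage. TATCre is a Cre protein carrying a cell-entry peptide, and the sources used here do not say where it was delivered. The strain label differed for every tumour, from C57BL/6 to C57BL/27. The sources used here give no age or sex and do not say whether each library came from its own animal, so the p-values reflect spread among these libraries that may be technical. N43L and N43R share a tag number. The numbers in the sample descriptions put all combined and Snf5-null libraries in series 13879. They put the SS18-SSX libraries in series 11264 (Myf5Cre) and 11361 (no Cre stated). Effects of this number therefore cannot be told apart from those of the SS18-SSX genotype or, among SS18-SSX tumours, from those of the Cre label.

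A muscle fibre shortens when myosin heavy chains of the thick filament pull on actin of the thin filament. Calcium released from the sarcoplasmic reticulum through the ryanodine receptor binds troponin C, and the troponin and tropomyosin complex then opens the myosin sites on actin. Titin and the Z disc hold the filaments in register, and creatine kinase, glycogen phosphorylase and enolase supply ATP. Heavy chains are switched with development and fibre type, from embryonic (Myh3) and perinatal (Myh8) forms to fast (Myh2, Myh1, Myh4) and slow (Myh7) forms. Soft-tissue tumours grow in or beside muscle, and in whole tumour tissue RNA of host fibres and of tumour cells cannot be told apart, nor can fewer muscle cells and less RNA per muscle cell.

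Promoters of 5 members are printed below, since these genes carry the 2 patterns described further on. Ckm and Acta1 stand for the genes that moved together in most libraries, although Snf5-null N1 had high Acta1 with low Ckm. Myh1, Myh4 and Myh8 neighbour each other on chromosome 11 and moved apart. Each run is the 250 bases before the RefSeq transcription start in GRCm38.p6, 5′ to 3′ on the strand of the gene. The RefSeq start lies 6318 bases from the start in the GENCODE annotation used for gene positions for Ckm and 217 bases for Myh4, and at most 50 bases for Acta1, Myh1 and Myh8. Capitals mark the E-box CANNTG (the site type bound by MyoD-family factors), TATAAA, the MEF2 consensus and the CArG box (the site type bound by serum response factor). Both strands were searched, and TATAAA overlaps some MEF2 matches.
Ckm, chr7:19410844-19411093, plus strand: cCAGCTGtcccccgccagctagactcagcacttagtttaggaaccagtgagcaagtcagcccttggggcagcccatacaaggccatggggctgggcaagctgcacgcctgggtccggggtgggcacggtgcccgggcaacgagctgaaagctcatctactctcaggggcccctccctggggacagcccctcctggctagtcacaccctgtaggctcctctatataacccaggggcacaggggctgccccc
Acta1, chr8:123894776-123895025, minus strand: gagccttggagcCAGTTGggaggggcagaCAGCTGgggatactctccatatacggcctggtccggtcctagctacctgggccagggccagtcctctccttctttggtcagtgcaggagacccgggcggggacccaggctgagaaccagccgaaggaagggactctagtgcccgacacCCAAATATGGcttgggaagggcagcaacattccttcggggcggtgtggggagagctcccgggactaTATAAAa
Myh1, chr11:67199852-67200101, plus strand: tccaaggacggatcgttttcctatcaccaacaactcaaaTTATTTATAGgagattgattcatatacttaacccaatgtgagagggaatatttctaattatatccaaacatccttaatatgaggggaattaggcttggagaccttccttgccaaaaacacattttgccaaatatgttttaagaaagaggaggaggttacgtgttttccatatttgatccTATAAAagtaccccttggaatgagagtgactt
Myh4, chr11:67237562-67237811, plus strand: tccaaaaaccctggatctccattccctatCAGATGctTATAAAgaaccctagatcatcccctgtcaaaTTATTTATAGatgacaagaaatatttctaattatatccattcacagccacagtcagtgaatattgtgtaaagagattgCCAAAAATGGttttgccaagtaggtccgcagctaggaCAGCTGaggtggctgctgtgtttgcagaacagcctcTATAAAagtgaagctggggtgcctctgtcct
Myh8, chr11:67276874-67277123, plus strand: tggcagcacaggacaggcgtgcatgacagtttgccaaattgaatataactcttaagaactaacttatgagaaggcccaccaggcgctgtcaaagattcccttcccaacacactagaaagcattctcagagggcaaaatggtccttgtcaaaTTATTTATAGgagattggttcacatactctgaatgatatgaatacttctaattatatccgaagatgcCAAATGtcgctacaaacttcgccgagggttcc

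Promoters of 29 members matched by symbol. An E-box was present in 24 of these 29 (82.8%), against 66.0% of the 27025 genes with a listed promoter of this length. TATAAA was present in 8 of the 29 (27.6%), against 13.0% of all, the MEF2 consensus in 6 (20.7%), against 3.01% of all, and a CArG box in 4 (13.8%), against 1.4% of all. The MEF2 match was the same run of letters, TTATTTATAG, in Myh1, Myh4 and Myh8. It ended 202 bases before the start in Myh1, 173 in Myh4 and 90 in Myh8. A match is a description of the letters only. Besides Ckm, the RefSeq starts of Mylpf, Myl2, Tnni1 and Myl3 lie 2718, 7762, 19987 and 21817 bases from the GENCODE starts. The heavy chain genes lie on the plus strand of chromosome 11 in GRCm38 in the order Myh3 (67078300 to 67102291), Myh2 (67171027 to 67197517), Myh1 (67200052 to 67224575), Myh4 (67238029 to 67260446) and Myh8 (67277124 to 67308634), while Myh7 lies on the minus strand of chromosome 14 (54970684 to 54994626).

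Total counts ran from 8642648 (SS18-SSX A) to 25177722 (SS18-SSX N460). Smarcb1, the deleted gene, stood at 0.909 to 3.66 CPM (counts scaled to library size) in combined and 10.6 to 26.9 CPM in Snf5-null libraries, against 47.1 to 111 CPM in SS18-SSX libraries, so both groups labelled null lay below the SS18-SSX range. All levels below are CPM scaled by TMM factors, unless given per kb of merged exons. Calls rest on edgeR's quasi-likelihood test over 18929 tested genes, with all 22 libraries in 1 fit of 6 groups and a threshold of 0.05 on the adjusted p. All 36 members passed the filter on low counts in this table of 6 groups. Folds are log2 with their standard error (SE).

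Muscle transcripts were abundant in a few Snf5-null and SS18-SSX libraries and scarcer in the rest. Summed over the 36 members, combined libraries held 1470, 920, 1870 and 2560 CPM with Myf5Cre and 5750, 662, 1320 and 758 CPM with TATCre. Snf5-null libraries held 21100, 1770 and 1300 CPM with Myf5Cre and 4530, 12700, 35300, 14700 and 4560 CPM with TATCre. SS18-SSX libraries held 19900, 132 and 137 CPM with Myf5Cre and 17800, 678 and 716 CPM with no Cre stated. The highest sums were in Snf5-null N43L and N30 and SS18-SSX N381 and A, the lowest in SS18-SSX N428 and N460, and the ranges of the 3 genotypes overlapped. Titin (Ttn), whose transcript is by far the longest, made up 51.4% of the sum in Snf5-null N30 and 58.9% in SS18-SSX N381. The median member stood at 0.97 CPM in combined Myf5Cre N4, 419 CPM in Snf5-null TATCre N43L and 0.217 CPM in SS18-SSX N428. The number of members above 100 CPM was 1 to 14 in combined TATCre, 2 or 3 in combined Myf5Cre, 3 to 21 in Snf5-null Myf5Cre, 6 to 25 in Snf5-null TATCre and 0 to 20 in SS18-SSX libraries.

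**Figure D1:**
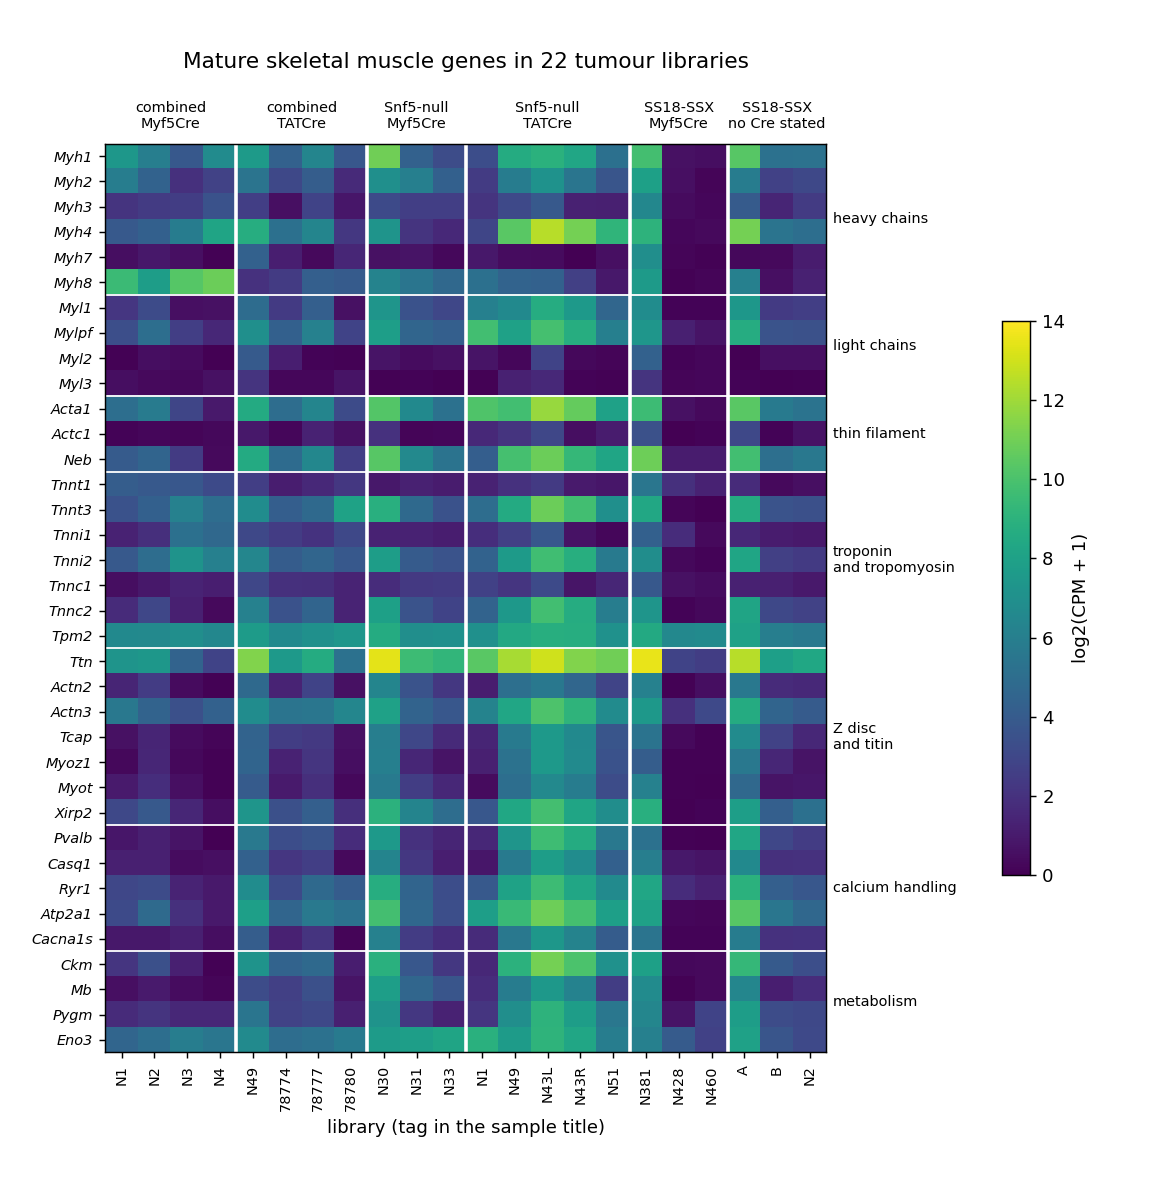
Level of each of the 36 members (rows, grouped by role) in each of the 22 libraries (columns, grouped by genotype and Cre label), as log2(CPM + 1). Most rows share the same bright columns (Snf5-null N30, N49, N43L and N43R, SS18-SSX N381 and A), while Myh8 is brightest in the 4 combined Myf5Cre columns.

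A second list of 34 skeletal muscle genes that are not members (Slc25a4, Des, Mybpc1, Mybpc2 and others, all tested) served as an index of the muscle RNA in a library. Their mean log2 CPM ran from 0.06 to 3.23 in combined, from 1.14 to 6.22 in Snf5-null and from -0.57 to 4.88 in SS18-SSX libraries, and it is called muscle content below. Not every gene of this list followed the members. In SS18-SSX N428 and N460 the members summed to 132 and 137 CPM, and Des and Mybpc2 were at most 3 CPM. Slc25a4 was at 305 and 349 CPM there, and Mybpc1 at 1.04 and 721 CPM. Results at equal muscle content depend on this index and on a slope per gene that all groups share. A gene called higher or lower at equal muscle content therefore need not differ that way in its measured level. Per log2 unit of muscle content the fitted slope of the members was 0.41 (Tnnc1) to 1.75 (Ckm and Myh1) log2 units. Tpm2 (0.42), Tnni1 (0.43), Eno3 (0.46) and Tnnt1 (0.53) were also at the shallow end, and the median slope over all genes was 0.

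Of the members, 21 were lower and 1 higher in combined tumours than in Snf5-null ones. Over all tested genes 20.5% were called lower and 29.1% higher, with a median log2 fold change of 0.23, against -2.92 over the 36 members. All 4 metabolic genes and all 5 calcium handling genes were lower, as were 6 of 7 Z disc genes, 2 of 3 thin filament genes and 2 of 4 light chains. Of the 7 troponin and tropomyosin genes 2 were lower and 1 was higher, and 0 of the 6 heavy chains were called by edgeR (0 at an unadjusted p below 0.05). Of the 34 other muscle genes 24 were lower and 0 higher, with a median of -3.12. These genes were read in the same libraries as the members. Without Snf5-null library N30 the count fell to 2 of 36 lower (Mb and Eno3) and 0 higher, and the median was -2.09. In that fit 19.3% of all tested genes were called lower and 15.9% higher. Without any other single library the count of members stayed between 17 and 25 lower. Without N30 the lower calls that remained were Mb and Eno3. The calls of Mylpf, Myot, Tpm2 and Actn3 were lost in 5, 8, 9 and 9 of the 22 fits. All 4 were lost without N30 and without combined 78774, 78780 or N3. Some of them were also lost without combined 78777 (Myot, Tpm2 and Actn3), N1 (Myot), N2 (Tpm2 and Actn3) or N4 (Mylpf, Myot and Actn3), or without Snf5-null N43L (Myot, Tpm2 and Actn3), N43R (Tpm2 and Actn3) or TATCre N49 (Tpm2). At equal muscle content, fitted as a covariate, 1 member was lower (Eno3) and 7 were higher (Myh1, Myh4, Myh8, Myl3, Tnnt1, Tnni1 and Tnni2), against 16.3% and 18.2% of all tested genes, and the median was 0.05.

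**Figure D2:**
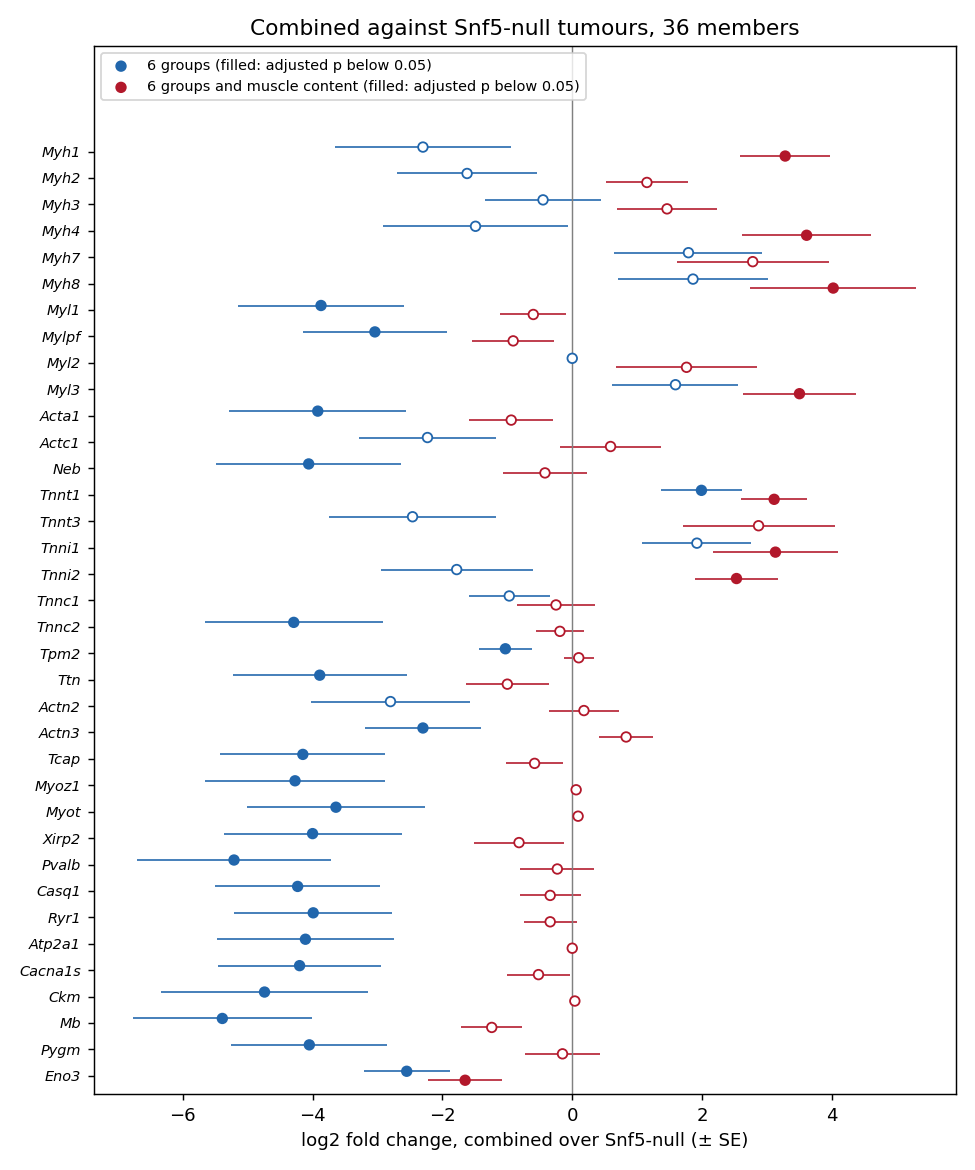
Log2 fold change of combined over Snf5-null tumours with its SE for the 36 members, from the fit of the 6 groups (blue) and from the same fit with muscle content as a covariate (red); filled points passed an adjusted p of 0.05, and no SE is drawn for folds within 0.1 of 0, where it is not defined well. The blue points lie mostly between -5.39 and -2.3. Many red points lie near 0, while several heavy chains and slow genes, Tnni2, Eno3 and Mb are among those farther off.

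Among the metabolic genes, Ckm, muscle creatine kinase, which buffers ATP, spread widely between libraries. Combined libraries had 3.48, 9.81, 1.32 and 0.0606 CPM with Myf5Cre and 144, 21.1, 26.3 and 1.2 CPM with TATCre. The 0.0606 CPM of N4 rested on 1 count. Snf5-null libraries had 477, 12.7 and 3.75 CPM with Myf5Cre and 1.92, 505, 2150, 1040 and 135 CPM with TATCre. SS18-SSX libraries had 250, 0.217 and 0.257 CPM with Myf5Cre and 628, 14.7 and 9.13 CPM with no Cre stated. Each of the 4 Snf5-null and SS18-SSX groups held libraries above 200 CPM beside libraries below 20 CPM, and the genotypes overlapped. The genotype means were 25.9 ± 48.6 CPM (SD, n = 8) in combined, 541 ± 744 CPM (n = 8) in Snf5-null and 150 ± 254 CPM (n = 6) in SS18-SSX tumours. Ckm was lower in combined tumours than in Snf5-null ones (log2 fold change -4.74 ± 1.6, adjusted p = 0.0204). Without N30 the value was -2.71 with an adjusted p of 0.15.

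Mb, myoglobin, the oxygen store of oxidative fibres, had the largest fold among the called members. Combined libraries had 0.481, 1.02, 0.388 and 0.121 CPM with Myf5Cre and 8.57, 5.18, 9.76 and 0.676 CPM with TATCre. Snf5-null libraries had 228, 23.4 and 11.8 CPM with Myf5Cre and 2.38, 57.6, 174, 73.5 and 4.78 CPM with TATCre. SS18-SSX libraries had 105, 0.0435 and 0.294 CPM with Myf5Cre and 85.1, 1.25 and 2.44 CPM with no Cre stated. The Myf5Cre groups did not overlap, all 4 combined libraries being at or below 1.02 CPM and all 3 Snf5-null libraries at or above 11.8 CPM. Mb was lower in combined tumours than in Snf5-null ones (log2 fold change -5.39 ± 1.38, adjusted p = 0.00382), and this call held without each library in turn (-5.81 to -4.38, highest adjusted p 0.0151). It was also lower within Myf5Cre (log2 fold change -7.42 ± 2.17, adjusted p = 0.0148), a call lost without N30, and did not pass the test within TATCre (log2 fold change -3.36 ± 1.7, adjusted p = 0.132). The interaction of Cre and genotype was -4.05 ± 2.41 (adjusted p = 0.404). At equal muscle content Mb was not called between combined and Snf5-null tumours. Its fold was then -3.7 ± 0.68 within Myf5Cre (adjusted p = 0.000678) and 1.21 ± 0.59 within TATCre (adjusted p = 0.157). The interaction passed the test at equal muscle content (-4.91 ± 0.84, adjusted p = 0.00718).

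Eno3, the muscle form of enolase, a glycolytic enzyme, was called in 4 comparisons. Combined libraries had 23.1, 32.8, 59.6 and 43.9 CPM with Myf5Cre and 101, 31.4, 36.9 and 52.3 CPM with TATCre. Snf5-null libraries had 203, 231 and 284 CPM with Myf5Cre and 476, 202, 543, 309 and 59.4 CPM with TATCre. SS18-SSX libraries had 68, 15 and 5.51 CPM with Myf5Cre and 257, 12.1 and 7.48 CPM with no Cre stated. Of the Snf5-null libraries, only N51 (59.4 CPM) lay within the combined range. Eno3 was lower in combined tumours than in Snf5-null ones (log2 fold change -2.55 ± 0.66, adjusted p = 0.00417), within Myf5Cre (log2 fold change -2.59 ± 0.97, adjusted p = 0.0487) and within TATCre (log2 fold change -2.52 ± 0.9, adjusted p = 0.0404). It was higher in Snf5-null than in SS18-SSX tumours (log2 fold change 2.4 ± 0.73, adjusted p = 0.0115), and both genotype calls held without each library in turn (highest adjusted p 0.00968 and 0.0219). Both also held at equal muscle content (-1.65 ± 0.57, adjusted p = 0.0328, and 2.57 ± 0.6, adjusted p = 0.00193). The calls within Myf5Cre and within TATCre were lost in 14 and 6 of the 22 fits that left out a library, and neither held at equal muscle content (-1.82 ± 0.8, adjusted p = 0.0984, and -1.49 ± 0.76, adjusted p = 0.174). With N43L and N43R, which share a tag number, summed as 1 library, the calls within Myf5Cre and within TATCre were also lost (adjusted p = 0.0578 and 0.0707). Snf5-null N1, N31 and N33 had 231 to 476 CPM of Eno3 with 1.92 to 12.7 CPM of Ckm, whereas Snf5-null N51 had 59.4 CPM of Eno3 with 135 CPM of Ckm. Pygm, muscle glycogen phosphorylase, ranged over 1.35 to 41.7 CPM in combined, 1.5 to 523 CPM in Snf5-null and 0.652 to 217 CPM in SS18-SSX libraries, and was lower in combined tumours than in Snf5-null ones (log2 fold change -4.05 ± 1.2, adjusted p = 0.01), a call lost without N30.

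The calcium handling genes were lower in combined tumours as a group of 5, with folds from -5.21 (Pvalb) to -3.99 (Ryr1). Pvalb encodes parvalbumin, a calcium buffer of fast fibres. Combined libraries had 0.802, 1.32, 0.698 and 0 CPM with Myf5Cre and 49.4, 9.06, 11.4 and 2.48 CPM with TATCre. Snf5-null libraries had 183, 2.94 and 1.75 CPM with Myf5Cre and 1.92, 159, 808, 395 and 47.9 CPM with TATCre. SS18-SSX libraries had 36.1, 0.0435 and 0.0367 CPM with Myf5Cre and 306, 6.89 and 4.54 CPM with no Cre stated. Pvalb had no read in combined N4, which at that depth allows up to 0.182 CPM (3 counts, counting error only). All Pvalb values above 100 CPM fell in libraries above 400 CPM of Ckm, and Pvalb was lower in combined tumours than in Snf5-null ones (log2 fold change -5.21 ± 1.5, adjusted p = 0.00834). Atp2a1 encodes SERCA1, the calcium pump of fast fibres. Combined libraries had 7.75, 27.3, 2.87 and 0.97 CPM with Myf5Cre and 239, 22.8, 49.8 and 36.5 CPM with TATCre. Snf5-null libraries had 893, 24.7 and 9.38 CPM with Myf5Cre and 227, 730, 1960, 931 and 241 CPM with TATCre. SS18-SSX libraries had 255, 0.174 and 0.147 CPM with Myf5Cre and 1310, 43.4 and 24.1 CPM with no Cre stated. Atp2a1 followed Ckm in most libraries, with 2 exceptions, combined 78780 and Snf5-null N1, which had 36.5 and 227 CPM at 1.2 and 1.92 CPM of Ckm. It was lower in combined tumours than in Snf5-null ones (log2 fold change -4.11 ± 1.36, adjusted p = 0.018). Ryr1, the release channel, Casq1, the calcium store protein of the reticulum, and Cacna1s, the voltage sensor, were lower too, with folds of -3.99 ± 1.22, -4.23 ± 1.27 and -4.2 ± 1.25 (adjusted p = 0.0116, 0.0105 and 0.0102). Ryr1 ranged over 0.97 to 109 CPM in combined, 9 to 779 CPM in Snf5-null and 1.4 to 485 CPM in SS18-SSX libraries. Casq1 ranged over 0.3 to 19.2 CPM in combined, 0.814 to 224 CPM in Snf5-null and 0.661 to 97.3 CPM in SS18-SSX libraries, and Cacna1s over 0.15 to 16.5 CPM in combined, 2.27 to 167 CPM in Snf5-null and 0.087 to 58.3 CPM in SS18-SSX libraries. The lowest combined value was in N4 for Ryr1 and in 78780 for Casq1 and Cacna1s, and the genotypes overlapped for all 3. All 5 calcium handling calls were lost without N30.

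Of the Z disc genes and titin, Actn2 alone missed the threshold (-2.8 ± 1.22, adjusted p = 0.0639). Ttn, the spring that spans from Z disc to M line, had the highest CPM of any member in most libraries, in part because CPM grows with transcript length. Combined libraries had 152, 171, 20.8 and 6 CPM with Myf5Cre and 2560, 191, 397 and 37 CPM with TATCre. Snf5-null libraries had 10900, 771 and 602 CPM with Myf5Cre and 1350, 4630, 8250, 2590 and 1980 CPM with TATCre. SS18-SSX libraries had 11700, 6.09 and 4.77 CPM with Myf5Cre and 5800, 241 and 326 CPM with no Cre stated. Every Snf5-null library was above every combined library other than N49, and the SS18-SSX libraries spanned both. Ttn was lower in combined tumours than in Snf5-null ones (log2 fold change -3.89 ± 1.34, adjusted p = 0.0229) and lower than in SS18-SSX tumours (log2 fold change -3.45 ± 1.35, adjusted p = 0.0448), the second turning to 1.32 without SS18-SSX N381. Tcap, the titin cap, and Myoz1, Myot and Xirp2, other Z disc and actin-binding proteins, were lower in combined tumours than in Snf5-null ones, with folds between -4.27 and -3.64. Actn3, the fast-fibre alpha-actinin, was lower as well (-2.3 ± 0.89, adjusted p = 0.04). Tcap ranged over 0.121 to 20.7 CPM in combined, 1.74 to 182 CPM in Snf5-null and 0.0735 to 108 CPM in SS18-SSX libraries. Xirp2 ranged over 0.424 to 156 CPM in combined, 12.9 to 914 CPM in Snf5-null and 0 to 447 CPM in SS18-SSX libraries, and Actn3 over 9.7 to 112 CPM in combined, 13.1 to 1070 CPM in Snf5-null and 2.83 to 392 CPM in SS18-SSX libraries. Myoz1 and Myot reached at most 186 and 96 CPM, both in Snf5-null N43L. Actn2, the alpha-actinin of all striated fibres, ranged over 0.0606 to 26.8 CPM in combined, 1.16 to 81.3 CPM in Snf5-null and 0.0435 to 68.8 CPM in SS18-SSX libraries.

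In the thin filament, Acta1, skeletal alpha-actin, had the highest mean CPM. Combined libraries had 32.2, 55, 6.6 and 0.97 CPM with Myf5Cre and 377, 30.9, 80.4 and 8.34 CPM with TATCre. Snf5-null libraries had 1210, 99.8 and 36.3 CPM with Myf5Cre and 1150, 851, 3630, 1650 and 253 CPM with TATCre. SS18-SSX libraries had 772, 0.565 and 0.294 CPM with Myf5Cre and 1390, 53.7 and 39.3 CPM with no Cre stated. Acta1 was lower in combined tumours than in Snf5-null ones (log2 fold change -3.92 ± 1.36, adjusted p = 0.0235), as was Neb, nebulin, the ruler of the thin filament (log2 fold change -4.06 ± 1.42, adjusted p = 0.0243). Actc1, cardiac actin, which fetal skeletal muscle also uses, had 10.2 CPM at most and did not pass the test (log2 fold change -2.23 ± 1.05, adjusted p = 0.0849). Neb ranged over 0.303 to 375 CPM in combined, 17.1 to 1850 CPM in Snf5-null and 1.07 to 1960 CPM in SS18-SSX libraries. Snf5-null N1 had 1150 CPM of Acta1 with 17.1 CPM of Neb, whereas Snf5-null N30 had 1210 CPM of Acta1 with 1310 CPM of Neb.

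Among the light chains, Mylpf, the fast regulatory light chain, was lower in combined tumours than in Snf5-null ones (log2 fold change -3.04 ± 1.11, adjusted p = 0.03). Combined libraries had 9.41, 32.6, 4.97 and 2 CPM with Myf5Cre and 124, 18.6, 71.4 and 6.16 CPM with TATCre. Snf5-null libraries had 227, 23 and 17.9 CPM with Myf5Cre and 853, 260, 951, 417 and 65.5 CPM with TATCre. SS18-SSX libraries had 162, 1.39 and 0.661 CPM with Myf5Cre and 411, 11 and 9.98 CPM with no Cre stated. The highest values were in Snf5-null N1 and N43L, although Ckm differed between these libraries (1.92 and 2150 CPM). Myl1, the fast essential light chain, was also lower (log2 fold change -3.87 ± 1.28, adjusted p = 0.0185). Myl1 ranged over 0.466 to 30.2 CPM in combined, 6.94 to 400 CPM in Snf5-null and 0.087 to 166 CPM in SS18-SSX libraries. The slow light chains Myl2 and Myl3 were at or below 6 CPM in every library except combined N49 and SS18-SSX N381 (14.6 and 19.4 CPM of Myl2, 3.3 and 3.27 CPM of Myl3), and neither passed the test.

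Among the troponins and tropomyosin, Tnnc2 and Tpm2 were lower and Tnnt1 was higher in combined tumours than in Snf5-null tumours. Tnnc2, the fast calcium sensor, was at 2.25, 6.86, 1.32 and 0.303 CPM in combined Myf5Cre and 70.4, 10.7, 21.4 and 1.58 CPM in combined TATCre libraries. In Snf5-null libraries it was at 248, 11.2 and 6.06 CPM with Myf5Cre and 21.3, 179, 854, 410 and 61 CPM with TATCre. In SS18-SSX libraries it was at 154, 0.087 and 0.22 CPM with Myf5Cre and 286, 7.13 and 5.9 CPM with no Cre stated. Tnnc2 was lower in combined tumours than in Snf5-null ones (log2 fold change -4.29 ± 1.37, adjusted p = 0.0152). Ube2c, a cell cycle gene on the opposite strand, shares 74% of the exon bases of Tnnc2. The sources used here do not give the strand setting of the counting. Ube2c stood at 50.5 CPM in combined N4, where Tnnc2 was at 0.303 CPM, and at 6.61 CPM in Snf5-null N43L, where Tnnc2 was at 854 CPM.

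Tnnt3, the fast tropomyosin-binding subunit, had the highest mean CPM of the troponins. Combined libraries had 10.5, 18.7, 70.8 and 30.7 CPM with Myf5Cre and 109, 17.5, 26.9 and 272 CPM with TATCre. Snf5-null libraries had 450, 26.7 and 10.6 CPM with Myf5Cre and 31, 377, 1840, 853 and 123 CPM with TATCre. SS18-SSX libraries had 336, 0.13 and 0.0367 CPM with Myf5Cre and 397, 10.9 and 9.58 CPM with no Cre stated. Combined 78780 had the highest Tnnt3 of its group at 1.2 CPM of Ckm. Tnnt3 missed the threshold between combined and Snf5-null tumours (log2 fold change -2.46 ± 1.29, adjusted p = 0.119), as did Tnni2, the fast inhibitory subunit (log2 fold change -1.78 ± 1.17, adjusted p = 0.213). Tnni2 was at 14.1, 31.1, 146 and 68.2 CPM in combined Myf5Cre libraries, against 221, 15 and 11.2 CPM in Snf5-null Myf5Cre libraries. Combined N3 and N4 thus held 146 and 68.2 CPM of Tnni2 at 1.32 and 0.0606 CPM of Ckm, while Snf5-null N31 and N33 held 15 and 11.2 CPM at 12.7 and 3.75 CPM of Ckm.

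Tnnt1, the slow tropomyosin-binding subunit, was the member called higher. Combined libraries had 16.7, 14.1, 13.1 and 7.88 CPM with Myf5Cre and 4.98, 1.17, 2.04 and 3.83 CPM with TATCre. Snf5-null libraries had 0.904, 1.44 and 1.13 CPM with Myf5Cre and 1.51, 3.04, 4.18, 1.04 and 0.781 CPM with TATCre. SS18-SSX libraries had 44.8, 2.87 and 1.51 CPM with Myf5Cre and 2.3, 0.297 and 0.51 CPM with no Cre stated. The 4 combined Myf5Cre libraries lay above all 8 Snf5-null libraries, and the combined TATCre libraries overlapped them. Tnnt1 was higher in combined tumours than in Snf5-null ones (log2 fold change 1.99 ± 0.63, adjusted p = 0.0146) and within Myf5Cre (log2 fold change 3.48 ± 1.03, adjusted p = 0.0159), and did not pass the test within TATCre (log2 fold change 0.51 ± 0.79, adjusted p = 0.641). The interaction of Cre and genotype was 2.97 ± 1.26 (adjusted p = 0.21). The genotype call was lost without Snf5-null N30 or N33 (highest adjusted p 0.0605), and the call within Myf5Cre without N30, N31 or N33 (highest adjusted p 0.0757). Tnni1, the slow inhibitory subunit, had 34.5 and 25.3 CPM in combined N3 and N4, against at most 13 CPM in the Snf5-null libraries, and did not pass the test (log2 fold change 1.92 ± 0.84, adjusted p = 0.0635). Tpm2, beta-tropomyosin, varied least, from 88.8 to 208 CPM in combined, 121 to 438 CPM in Snf5-null and 49.2 to 364 CPM in SS18-SSX libraries, and was lower in combined tumours than in Snf5-null ones (log2 fold change -1.03 ± 0.41, adjusted p = 0.0443). Tnnc1, the troponin C of slow and cardiac muscle, stayed at or below 13.4 CPM and missed the threshold (log2 fold change -0.97 ± 0.62, adjusted p = 0.205).

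**Figure D3:**
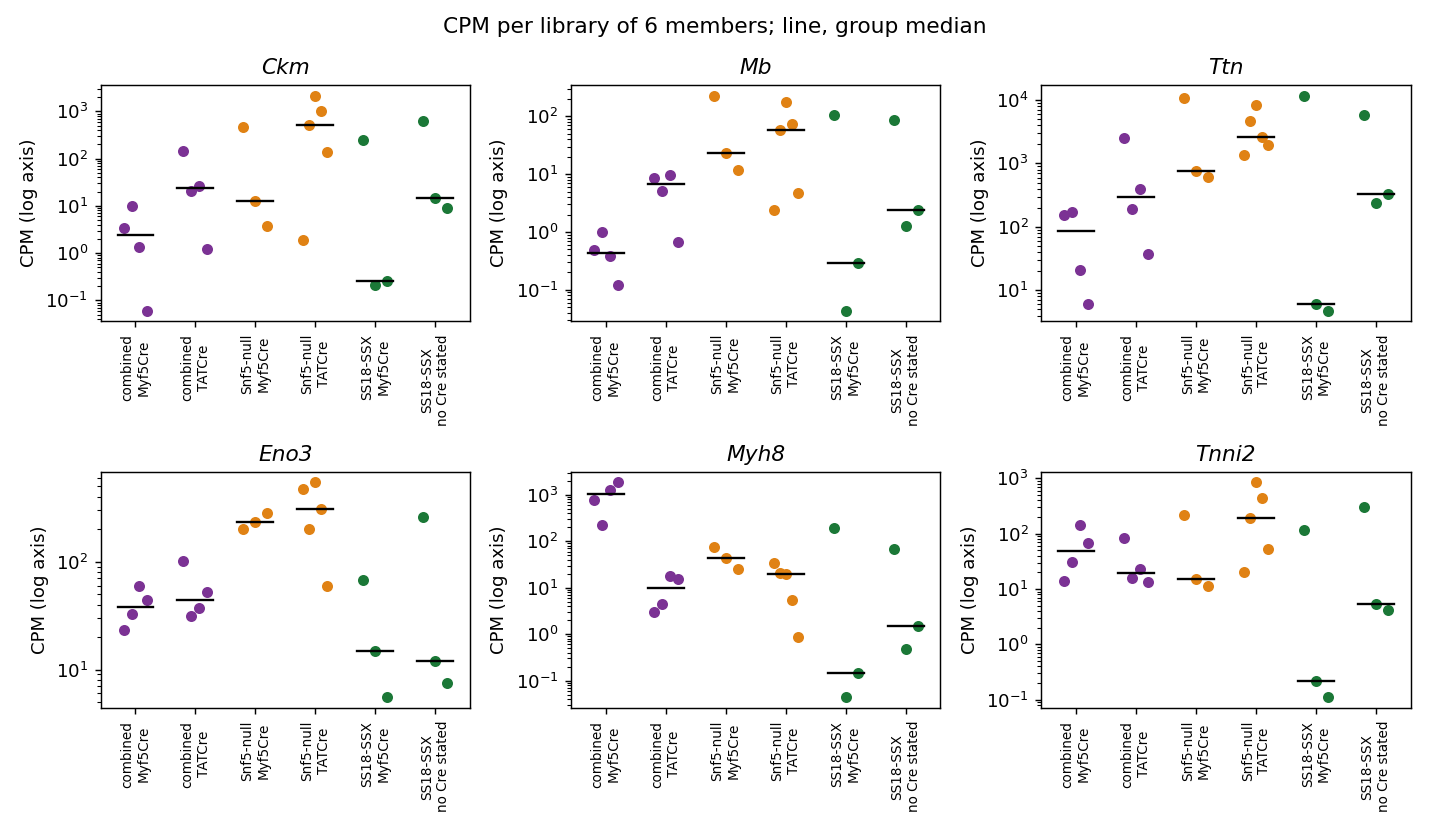
CPM of Ckm, Mb, Ttn, Eno3, Myh8 and Tnni2 in each library on log axes, by genotype and Cre label; each point is a library and the line is the group median. Ckm, Mb and Ttn each have single high libraries in the Snf5-null Myf5Cre and both SS18-SSX groups, while Myh8 lies at 222 to 1840 CPM in all 4 combined Myf5Cre libraries.

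No heavy chain passed the test between combined and Snf5-null tumours, and their levels differed in kind from library to library. Myh8, the perinatal chain, had 758, 222, 1290 and 1840 CPM in combined Myf5Cre and 3, 4.5, 17.6 and 15.4 CPM in combined TATCre libraries. In Snf5-null libraries it had 75.9, 42.8 and 25.8 CPM with Myf5Cre and 34.8, 21.2, 19.3, 5.35 and 0.878 CPM with TATCre. In SS18-SSX libraries it had 196, 0.0435 and 0.147 CPM with Myf5Cre and 67, 0.475 and 1.47 CPM with no Cre stated. The 4 combined Myf5Cre libraries lay above the other 18, and Ckm in these 4 was 0.0606 to 9.81 CPM. Myh8 alone made up 24.2 to 71.9% of the summed CPM of the 36 members there, against at most 2.41% in each of the others. With all libraries and edgeR it missed the threshold in every comparison. Between combined and Snf5-null tumours the fold was 1.86 ± 1.15 (adjusted p = 0.184), and within Myf5Cre it was 4.42 ± 1.98 (adjusted p = 0.0948). Between Myf5Cre and TATCre in combined tumours it was 6.66 ± 1.95 (adjusted p = 0.0762), and the interaction of Cre and genotype was 5.1 ± 2.4 (adjusted p = 0.267). With DESeq2, another count model, the adjusted p was 0.0155 within Myf5Cre and 0.00019 between the Cre labels in combined tumours. At equal muscle content edgeR called Myh8 higher in combined tumours than in Snf5-null ones (4.02 ± 1.28, adjusted p = 0.0215) and within Myf5Cre (6.56 ± 1.96, adjusted p = 0.0191). It was then also higher with Myf5Cre than with TATCre in combined tumours (7.57 ± 1.77, adjusted p = 0.041).

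Myh13, the extraocular heavy chain gene and not a member, was looked at after the Myh8 values were seen. It had 101, 43.2, 283 and 448 CPM in combined Myf5Cre libraries, against at most 22.6 CPM in the other 18. Of the 50-base stretches of Myh8 transcripts 12.1% also occur in other genes, most often Myh2 (6.09%), and the rest occur in no other annotated gene. The sources used here do not say how the counting treated reads matching more than 1 gene. Myh1 (30.5% shared) and Myh2 (24.6%) are the most uncertain of the heavy chains. Antisense genes cover part of the exon bases of other members, 27.6% of Mb (Gm49540), 21.9% of Atp2a1 (Rabep2), 20% of Cacna1s (Gm37759) and 15.5% of Ckm (A930016O22Rik), and without a stated strand setting reads of such pairs cannot be told apart.

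Myh4, the chain of the fastest fibres, was high in most libraries where Ckm was high. Combined libraries had 13.8, 18.9, 57.2 and 292 CPM with Myf5Cre and 426, 35.1, 80.6 and 3.83 CPM with TATCre. Snf5-null libraries had 153, 3.38 and 2.06 CPM with Myf5Cre and 6.63, 1350, 5710, 2120 and 577 CPM with TATCre. SS18-SSX libraries had 535, 0.174 and 0.257 CPM with Myf5Cre and 2150, 40.1 and 32.6 CPM with no Cre stated. Combined N4 was again apart, with 292 CPM of Myh4 at 0.0606 CPM of Ckm. Myh4 missed the threshold between combined and Snf5-null tumours (log2 fold change -1.49 ± 1.43, adjusted p = 0.398), as did Myh1, another fast chain (log2 fold change -2.3 ± 1.35, adjusted p = 0.163). At equal muscle content both were higher in combined tumours (Myh4 3.61 ± 0.99, adjusted p = 0.00905, and Myh1 3.28 ± 0.69, adjusted p = 0.00134).

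Myh7, the slow chain, was near 0 in most libraries. Combined libraries had 0.428, 0.843, 0.466 and 0.0606 CPM with Myf5Cre and 19.3, 1.23, 0.292 and 1.8 CPM with TATCre. Snf5-null libraries had 0.565, 0.697 and 0.25 CPM with Myf5Cre and 0.872, 0.38, 0.33, 0 and 0.488 CPM with TATCre. SS18-SSX libraries had 122, 0.13 and 0.0735 CPM with Myf5Cre and 0.219, 0.297 and 1.13 CPM with no Cre stated. Only SS18-SSX N381 (122 CPM) and combined N49 (19.3 CPM) were above 2 CPM, the 0 of Snf5-null N43R allows up to 0.164 CPM, and the fold of combined over Snf5-null tumours was 1.79 ± 1.14 (adjusted p = 0.202). Myh3, the embryonic chain, had 3.32, 4.33, 4.81 and 10.7 CPM in combined Myf5Cre and 5.13, 0.493, 5.96 and 0.826 CPM in combined TATCre libraries. It had 7.96, 4.98 and 5.06 CPM in Snf5-null Myf5Cre and 3.31, 7.6, 14.1, 1.47 and 1.37 CPM in Snf5-null TATCre libraries. It had 88.7, 0.304 and 0.184 CPM in SS18-SSX Myf5Cre libraries and 15, 1.78 and 4.31 CPM in those with no Cre stated, so that N381 alone was above 20 CPM. Its fold of combined over Snf5-null tumours was -0.45 ± 0.9 (adjusted p = 0.699). Myh2, the fast oxidative chain, did not pass the test either (log2 fold change -1.62 ± 1.08, adjusted p = 0.219), at 2.18 to 61.2 CPM in combined, 4.36 to 140 CPM in Snf5-null and 0.147 to 247 CPM in SS18-SSX libraries. Myh1 ranged over 13 to 198 CPM in combined, 8.38 to 1970 CPM in Snf5-null and 0.441 to 1340 CPM in SS18-SSX libraries.

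Per kb of exon, a different heavy chain led in different sets of libraries. Myh8 was 53.3 to 89.5% of the 6 chains in combined Myf5Cre libraries, against 0.23 to 28.2% in combined TATCre libraries. Myh4 was 75.6 to 92.7% of them in Snf5-null N49, N43L, N43R and N51, and Myh1 was 86% in Snf5-null N30. In Snf5-null N31 and N33 Myh2 led with 53 and 35.2%, and in Snf5-null N1 Myh8 led with 43.9% of a low total (58.9 CPM over the 6 chains). In the SS18-SSX libraries A, B and N2 Myh4 was 40.7 to 61.1% and Myh1 36.1 to 44.3%. In SS18-SSX N428 and N460 the 6 chains summed to 1.7 and 1.25 CPM, too few for their shares to be read.

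**Figure D4:**
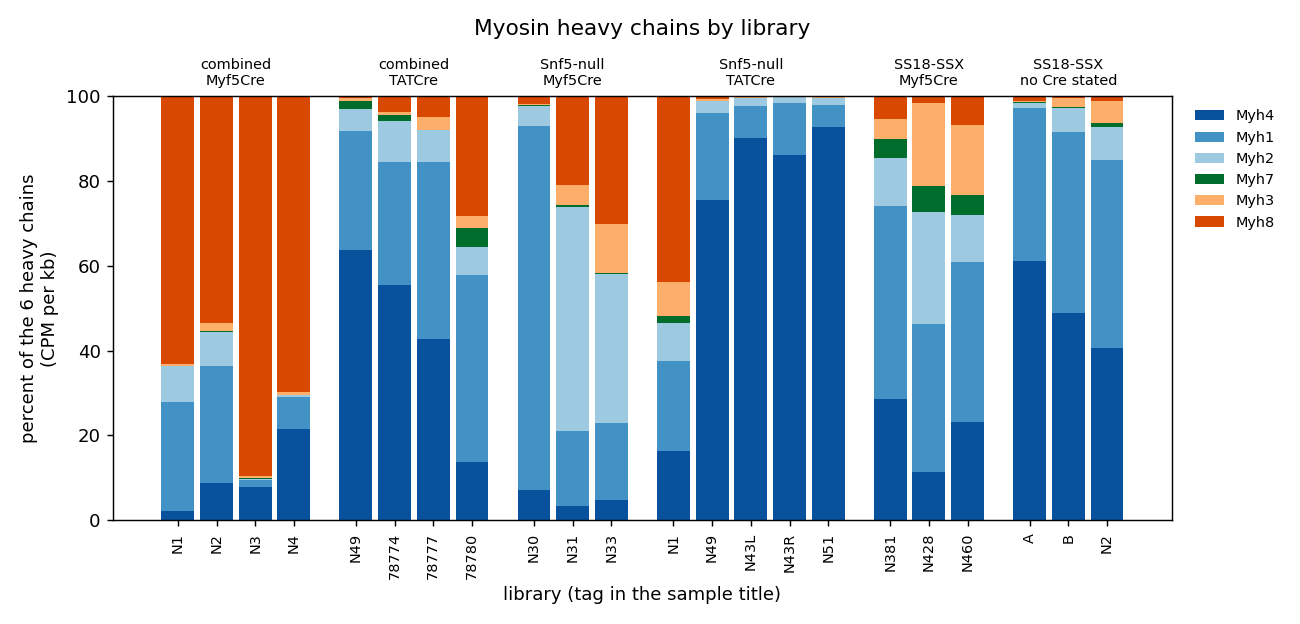
Share of each of the 6 myosin heavy chains in their summed CPM per kb of exon, 1 bar per library, grouped by genotype and Cre label. The perinatal chain Myh8 fills 53.3 to 89.5% of the bars of combined Myf5Cre tumours, and the fast chain Myh4 fills 75.6 to 92.7% of the bars of Snf5-null TATCre tumours N49, N43L, N43R and N51.

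Plotted against Ckm, members fell into those that followed it and those that did not. Atp2a1 was high where Ckm was high across libraries of all genotypes, while Myh8 in combined Myf5Cre tumours, Tnni2 in combined N3 and N4 and Eno3 in Snf5-null N1, N31 and N33 stood above the other libraries of the same Ckm. Snf5-null N1 combined low Ckm (1.92 CPM), Neb (17.1 CPM) and Pvalb (1.92 CPM) with high Ttn (1350 CPM), Acta1 (1150 CPM), Mylpf (853 CPM) and Eno3 (476 CPM). Genes of immature muscle, picked after their values were seen, went both ways in this library. Myh3 (3.31 CPM), Myh8 (34.8 CPM), Actc1 (2.03 CPM), Myod1 (9.59 CPM) and Mymx (5.46 CPM) had higher values in other libraries. Myf5 (270 CPM) was higher only in combined 78780 (331 CPM). Myog, Chrng, Myl4, Myf6 and Mymk had their highest here. Myf6 and Mymk were at 92.6 and 35.9 CPM (at most 48.4 and 26.1 CPM elsewhere). Myog, a factor of differentiating myoblasts, was at 31.3 CPM (at most 14.7 CPM elsewhere), Chrng, the fetal acetylcholine receptor subunit, at 120 CPM (at most 16.4 CPM elsewhere) and Myl4, the embryonic and atrial light chain, at 365 CPM (at most 18 CPM elsewhere).

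**Figure D5:**
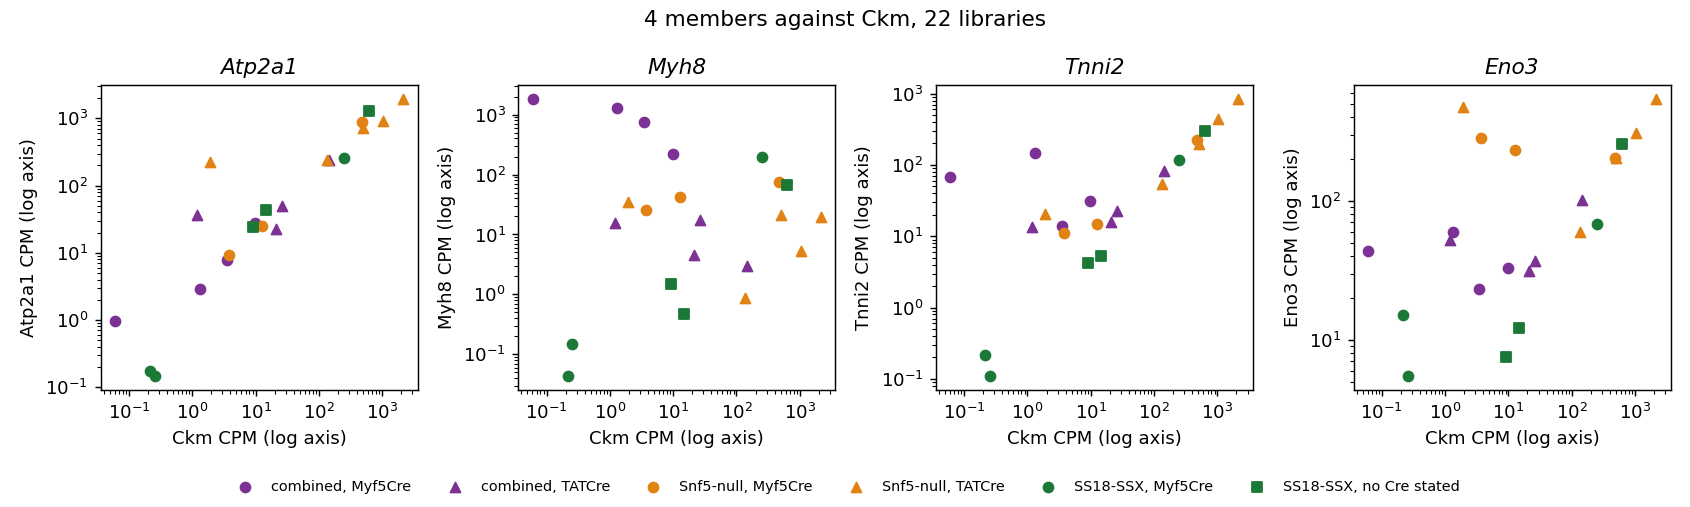
CPM of Atp2a1, Myh8, Tnni2 and Eno3 against CPM of Ckm in the 22 libraries, both axes logarithmic, with colour for genotype and marker shape for the Cre label. Atp2a1 lies along a rising band, Myh8 of the 4 combined Myf5Cre libraries lies at 222 to 1840 CPM at the left, and Eno3 of Snf5-null libraries N1, N31 and N33 lies above the band.

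Split by Cre, the genotype difference rested on few calls. Within Myf5Cre 4 members were lower (Pvalb -6.45 ± 2.31, adjusted p = 0.0403, Ryr1 -5.09 ± 1.85, adjusted p = 0.0426, Mb and Eno3) and 1 higher (Tnnt1) in combined tumours than in Snf5-null ones, against 15.3% and 15.7% of all tested genes. The median fold was -3.55. Without N30, 0 were called in either direction, against 12.9% of all tested genes lower and 7.11% higher. Without SS18-SSX N381, which enters through the shared spread, 19 were lower and 3 higher, against 17.9% and 12.8%. Within TATCre 1 member was lower (Eno3, 0 lower with N43L and N43R summed) and 0 were higher, against 13.9% and 18.1%, with a median of -2.72 and 5 at an unadjusted p below 0.05. DESeq2 called 19 and 14 members lower in the Myf5Cre and TATCre comparisons. For DESeq2 counts, here and below, the share of all tested genes is not given. At equal muscle content 7 were higher (Myh1, Myh4, Myh8, Myl3, Tnnt1, Tnni1 and Tnni2) and 1 lower (Mb) within Myf5Cre, against 12.7% and 13.9% of all tested genes. Within TATCre the same covariate gave 3 higher (Myh1, Myh7 and Tnnt1) and 0 lower, against 8.87% and 10.3%.

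Against SS18-SSX tumours, 8 members were lower in combined tumours (Actc1, Neb, Ttn, Tcap, Casq1, Ryr1, Mb and Pygm) and 0 were higher, against 21.9% and 23.1% of all tested genes, with a median of -2.31. Mb had the largest of these folds (-4.19 ± 1.34, adjusted p = 0.0168), and the other 7 lay between -3.65 (Neb) and -3 (Actc1). These calls depended on the SS18-SSX libraries N381 and A, and without 1 combined library at a time the lower count was 1 to 12. Without N381, 0 were lower and 6 higher, against 17% and 20.4% of all tested genes, with a median of 1.32. Without A, 0 were lower and 2 higher, against 18.8% and 21.2%, with a median of -0.9. With muscle content as a covariate 9 were higher (Myh1, Myh4, Myh8, Myl3, Tnnt1, Tnnt3, Tnni1, Tnni2 and Actn3) and 1 lower (Pygm), against 23.3% and 20.2%. The comparisons of combined and of Snf5-null with SS18-SSX tumours share the same SS18-SSX libraries.

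Between Snf5-null and SS18-SSX tumours 1 member was higher (Eno3) and 1 lower (Myh7, log2 fold change -3.38 ± 1.25, adjusted p = 0.032), against 22.3% and 25.9% of all tested genes. The median was 0.82. Without N381, 28 members were higher and 0 lower, against 25.4% and 20.2% of all tested genes. The median was then 4.46, and Myh7 turned to 1.03 (adjusted p = 0.397). The call of Myh7 was also lost without SS18-SSX N2 or Snf5-null N30, N31 or N33. Without A, 6 were higher and 1 lower, against 25.7% and 21% of all tested genes. The muscle covariate gave 2 higher (Mylpf and Eno3) and 2 lower (Myh7 and Tnnt1), against 25.2% and 25.8%. Ckm stood at 1.4 ± 1.54 (adjusted p = 0.468) with all libraries and at 5.76 without N381.

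Between the Cre labels no member passed the test in the edgeR fit of all 22 libraries without the muscle covariate. In Snf5-null tumours 0 were higher and 0 lower with Myf5Cre than with TATCre, 1 having an unadjusted p below 0.05, against 1.78% and 3.19% of all tested genes called, and DESeq2 called 0 higher and 1 lower. With the muscle covariate Myh2 and Mb were higher with Myf5Cre in Snf5-null tumours and 0 were lower, against 1.58% and 2.55%. In combined tumours 0 were higher and 0 lower, 5 having an unadjusted p below 0.05, against 0.571% and 1.25%, and DESeq2 called 1 higher and 0 lower. In edgeR 1 was higher with only the combined libraries in the fit. Without SS18-SSX N381 1 was higher (Myh8), against 0.662% of all tested genes. At equal muscle content Myh8, Tnnt1 and Tnni2 were higher with Myf5Cre in combined tumours and 0 members were lower, against 0.571% and 1% of all tested genes. For the interaction of Cre and genotype 0 were called in either direction by edgeR and by DESeq2 without the covariate, 2 having an unadjusted p below 0.05, against 1.32% and 1.1%, while at equal muscle content edgeR called 1 higher (Myh4, 7.72 ± 1.83, adjusted p = 0.0288) and 1 lower (Mb), against 1.85% and 1.79%. Between the Myf5Cre and the other SS18-SSX tumours 0 were called in either direction, 3 having an unadjusted p below 0.05, against 1.25% and 0.866%, and DESeq2 called 1 higher and 0 lower. Without N381 edgeR called 1 lower there (Atp2a1), against 0.837% of all tested genes. At equal muscle content Tnnt1 was higher and Pvalb and Atp2a1 lower there, against 1.38% and 1.28%. Cre label and series number cannot be told apart between the SS18-SSX groups.

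From a list of 20 early genes of the muscle lineage, mainly those called between combined and Snf5-null tumours are named here, in both directions. The named genes therefore do not stand for the whole list. Over all tested genes 20.5% were called lower and 29.1% higher. Pax3 (4.6 ± 0.92, adjusted p = 0.000567), Pax7 (4.75 ± 0.79, adjusted p = 0.000101), Eya1 (4.85 ± 0.74, adjusted p = 4.99e-05) and Msc (4.31 ± 0.79, adjusted p = 0.000263), factors of progenitors, were higher in combined tumours. Myod1 (-4.58 ± 0.98, adjusted p = 0.00105) and Mymx, a fusion factor (-4.81 ± 1.22, adjusted p = 0.00372), as well as Mef2a, Mef2c and Des were lower. Pax3 and Mymx did not pass the test within TATCre (2.24 ± 1.02, adjusted p = 0.0988, and -2.18 ± 1.5, adjusted p = 0.269). Myf5, a factor of muscle progenitors, and Cdh15, the cadherin of muscle satellite cells, passed the test within neither Cre label. Their folds were -4.15 ± 2.38 (adjusted p = 0.19) and -5.18 ± 1.98 (adjusted p = 0.0528) within Myf5Cre. Within TATCre they were 0.57 ± 1.92 (adjusted p = 0.839) and 1.69 ± 1.53 (adjusted p = 0.406). Of the 4 other muscle genes with the highest level per kb, Des (-4.45 ± 1.13, adjusted p = 0.00353) and Mybpc2 (-4.26 ± 1.41, adjusted p = 0.0184) were lower, while Mybpc1 (-0.84 ± 0.75, adjusted p = 0.366) and Slc25a4 (0.44 ± 0.19, adjusted p = 0.0615) did not pass the test. Mybpc1, a myosin-binding protein of slow fibres, had 179 to 656 CPM in combined Myf5Cre libraries, against 6.54 to 62.3 CPM in combined TATCre libraries, and this difference did not pass the test (4.17 ± 1.19, adjusted p = 0.0713).

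Markers of other cell types were also counted. Between combined and Snf5-null tumours 20.5% of all tested genes were called lower and 29.1% higher. All 8 macrophage markers were lower in combined tumours than in Snf5-null ones, and their summed level was 92 to 910 CPM in combined, 2040 to 8140 CPM in Snf5-null and 106 to 705 CPM in SS18-SSX libraries, led by Lyz2. Of 6 tendon markers 5 were lower and 1 higher, with sums of 4.32 to 302 CPM in combined, 61.6 to 3200 CPM in Snf5-null and 39.7 to 285 CPM in SS18-SSX libraries. All 5 red cell genes were higher in combined tumours, with sums of 50.4 to 1280 CPM in combined, 7.17 to 228 CPM in Snf5-null and 14.7 to 409 CPM in SS18-SSX libraries. Of 9 cardiac genes 5 were tested, 1 was higher (Tnni3, cardiac troponin I, 2.58 ± 0.37, adjusted p = 2.49e-05) and 0 were lower. Their sums were 6.23 to 39.1 CPM in combined, 4.53 to 367 CPM in Snf5-null and 23.3 to 75.2 CPM in SS18-SSX libraries, the 367 CPM being mostly Myl4 of Snf5-null N1. Myh6, the cardiac heavy chain, was at 14 CPM in SS18-SSX N381, at most 2.93 CPM elsewhere, and at 0 in combined N3 and N4, Snf5-null N43R and SS18-SSX B and N2. Between combined and Snf5-null tumours 1 gene was higher and 2 were lower of 8 smooth muscle genes, 1 and 3 of 8 endothelial genes, 1 and 3 of 7 Schwann cell and nerve genes, 1 and 0 of 5 keratinocyte genes, and 0 and 0 of 7 adipocyte genes, of which 0 had an unadjusted p below 0.05 in the edgeR fit. The part of these cell types in the members' values was not tested.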

How the data were processed

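RNA-seq libraries of 22 fresh-frozen mouse tumours were prepared with a stranded, poly(A)-selecting kit, per the labels' protocols. The deposited values are whole-number counts per gene, not normalized, in a table of 48440 Ensembl genes. Per the submitters' processing notes the tools were cutadapt, STAR 2.7.5a, featureCounts, RSEM and DESeq2 on genome build mm10, with no role given for each, and neither the strand setting nor the treatment of reads that fit several genes is given in the sources used here. Symbols were matched for 48058 rows through GENCODE M21 (GRCm38).

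From these counts, edgeR 4.0.16 (R 4.3.3) computed TMM factors, kept 18929 genes (filterByExpr, minimum count 10, minimum total 15; 99.91% of counts) and fitted 6 groups over 22 libraries with the quasi-likelihood F test. P-values were adjusted by Benjamini-Hochberg over all tested genes, and called at an adjusted p below 0.05. Genotype contrasts gave each Cre group equal weight. Standard errors are the log2 fold change divided by the square root of F, and are poorly defined for folds near 0. Total counts were 8642648 to 25177722 per library, so intervals for 0 counts cover counting error only. The fit was tested on simulated data with the same spread for all genes and no difference in muscle RNA between libraries. That test therefore does not cover such differences.

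Alternatives were RLE scaling, TMM factors without muscle genes, no filter, robust dispersion, genotype alone, only the libraries compared, N43L and N43R summed, muscle content as a covariate, DESeq2 1.42.0, and leaving out each of the 22 libraries. N31 and N33 were summed as an alternative chosen after seeing the data. Muscle content is the mean log2 CPM of 34 muscle genes that are not members. The members and lists were chosen with earlier results of these data known.

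Values per library are given for the member with the highest mean CPM in each of the 7 roles, for the slow, fast, embryonic and perinatal heavy chains, for members called against the main direction, and for up to 4 called members with the largest fold. Eno3, Tnni2, Myh13, Myf5 and Cdh15 were added after their values were seen. Of the other muscle genes the 4 with the highest mean CPM per kb are named, and of the early genes those called, other than a gene not reported here. Promoters are from RefSeq (GRCm38.p6).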

Additional observations from a re-analysis of the deposited data

Results flagged for a closer look

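Of 45 group values tested for a library far from the others of its group (groups of 4 or 5 libraries), 5 stood apart by Dixon's criterion, all on the high side. Chance flags about 1 in 20 groups when values are normal and independent. The CPM values here are skewed, and the sum includes the single members, so this rate need not hold. In combined Myf5Cre tumours Myh4 was at 292 CPM in N4, against 13.8 to 57.2 CPM in the other 3, and the same library had 0.0606 CPM of Ckm. The other 4 values all belong to combined TATCre library N49. Its sum over the 36 members was 5750 CPM, against 662 to 1320 CPM in the other 3 libraries of its group. Ttn was at 2560 CPM, against 37 to 397 CPM, Atp2a1 at 239 CPM, against 22.8 to 49.8 CPM, and Myh7 at 19.3 CPM, against 0.292 to 1.8 CPM. Without N49, 22 members were lower and 1 higher in combined tumours than in Snf5-null ones, beside 21 and 1 with it. Of all tested genes 21.3% were lower and 34.1% higher without N49.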

How the results depend on the processing

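Scaling by RLE factors moved the median log2 fold change of all genes in combined against Snf5-null tumours to 0.12, beside 0.235 with TMM, and changed none of the 52 single-gene calls examined. The same held without a filter on low counts and with robust dispersion, while TMM without muscle genes lost 2 calls. The share of all tested genes is given above for muscle content and for some left-out libraries. For the other settings below it is not given, so those counts are not read as results about the members. In combined against Snf5-null tumours the higher count became 2 with genotype alone, with only the libraries compared, with N43L and N43R summed and with DESeq2. Muscle content as a covariate gave 7 higher and 1 lower there. It turned the sign of Myh1 (3.28), Myh4 (3.61), Tnni2 (2.53), Actn3 (0.83), Tpm2 (0.1), Myot (0.09), Myoz1 (0.06), Ckm (0.04) and Atp2a1 (0). Within Myf5Cre the counts higher and lower became 3 and 21 with only the libraries compared, 3 and 19 with DESeq2, and 7 and 1 with muscle content, and the higher count became 2 with N43L and N43R summed and 0 with N31 and N33 summed. Within TATCre 4 were lower with only the libraries compared, 14 with DESeq2 and 0 with N43L and N43R summed, and muscle content gave 3 higher and 0 lower. Against SS18-SSX tumours 1 was lower in combined tumours with genotype alone, 5 with only the libraries compared and 17 with DESeq2, and muscle content gave 9 higher and 1 lower. Between Snf5-null and SS18-SSX tumours 2 were lower with genotype alone and 0 with N31 and N33 summed or with DESeq2, and muscle content gave 2 higher and 2 lower. Between Cre labels, muscle content gave 2 higher in Snf5-null, 3 higher in combined and 1 higher and 2 lower in SS18-SSX tumours, DESeq2 gave 1 lower, 1 higher and 1 higher in the same 3 comparisons, and the combined libraries alone gave 1 higher. For the interaction muscle content gave 1 higher and 1 lower. Leaving out 1 library at a time, counts ranged from 0 to 2 higher and 2 to 25 lower for combined against Snf5-null tumours, 0 to 3 and 0 to 19 within Myf5Cre, 0 to 1 and 0 to 3 within TATCre, 0 to 6 and 0 to 12 for combined against SS18-SSX tumours, and 1 to 28 and 0 to 1 for Snf5-null against SS18-SSX tumours. They were 0 to 1 higher between Cre labels in combined tumours and 0 to 1 lower in SS18-SSX tumours. Neb ranged from -4.43 to 0.96 and Ttn from -4.39 to 1.32 for combined against SS18-SSX tumours, and Myh7 from -3.64 to 1.03 for Snf5-null against SS18-SSX tumours, each turning without N381. The cause of these changes was not tested. No paired analysis was possible because the groups share at most 1 title tag.

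Groups of 3 to 5 libraries that differ widely in muscle RNA limit what these counts can show. Without 1 library, N30, 2 of the 21 lower calls between combined and Snf5-null tumours remained. Depth limits the members near 0, such as the slow light chains. In SS18-SSX N428 and N460 and combined Myf5Cre N4, only 9, 8 and 16 of the 36 members were above 1 CPM. Ckm had 5, 7 and 1 counts in these libraries.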

Other observations

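Muscle-lineage genes outside the members differed between single libraries of a group. Combined TATCre library 78780, which had 272 CPM of Tnnt3 with 1.2 CPM of Ckm, also had 331 CPM of Myf5, a factor of muscle progenitors, against at most 0.0617 CPM in the other 3 libraries of its group. Cdh15, the cadherin of muscle satellite cells, was at 129 CPM in that library, against 0.22 to 1.79 CPM in the other 3. Snf5-null TATCre library N1 had 1890 CPM of Des, the muscle intermediate filament, against 56 to 600 CPM in the other 4 libraries of its group. These genes were picked after their values were seen, and no test was made of single libraries.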
